A study of Homo sapiens with 26 samples.

Results

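Integrins and laminins are the receptor and ligand families through which epithelial cells hold on to their basement membrane. Entries of the gene expression table were taken where the symbol has the form of an integrin alpha or beta chain or of a laminin chain, and 38 of 30331 named entries are described. They were 26 integrin chains, 11 laminin chains and ITGBL1, a secreted protein with integrin-like repeats whose symbol fits the form though it is no integrin chain.

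The tumors were grown under the skin of female NSG mice, a strain that lacks lymphocytes and natural killer cells, from ZR751, an established line of hormone receptor-positive, HER2-negative breast cancer cells. The resistant group was 5 mice given atirmociclib, which inhibits the cyclin-dependent kinase CDK4, for 84 to 91 days, as oral doses of 60 mg/kg given 2 times daily and 7 hours apart. The sensitive group was 3 mice given the same dose for 3 days, and the vehicle group was 5 mice given vehicle for 3 days (labelled DMSO). The 3-day tumors were taken 3 hours after the last dose, and treatment had begun when tumors averaged 150 mm3. All mice carried the same cell line. Since the resistant mice were treated in another study, whose vehicle mice are not analysed here, length of treatment, study and resistance cannot be told apart. Each mouse gave libraries A and B, which were averaged, so that 13 mice and not 26 libraries are the units of comparison.

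A laminin is secreted as a cross-shaped trimer of an alpha, a beta and a gamma chain, and the trimers polymerise or are anchored in the basement membrane. LAMA3 and LAMB3 are chains of laminin-332, the laminin of the hemidesmosome, to which the integrin of ITGA6 and ITGB4 and that of ITGA3 and ITGB1 bind. LAMA5 with LAMB1 or LAMB2 and LAMC1 forms laminin-511 and laminin-521, the widespread laminins of adult epithelia. Integrins work as pairs of an alpha and a beta chain, and in normal breast the ITGA6 and ITGB4 pair is best known from the basal layer.

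LAMA3 and ITGA6 were higher in the resistant tumors than in both other groups, and LAMB1, a beta chain of other laminins, was lower than in both. ITGA3 was also higher than in both, and LAMB2, LAMB3 and ITGB6 were higher than in vehicle tumors. The results of LAMB3 and ITGB6, and that of ITGA3 against sensitive tumors, did not hold when certain single mice were left out. Levels are given as TPM, the abundance of a gene's transcripts scaled for their length and for the library's total, averaged over both libraries of a mouse. A change is a limma estimate on log2(TPM + 1), given with its SE relative to the median change of all genes. The adjusted p tests that estimate before the median is taken off. A gene was tested where its mean reached 1 TPM in at least 3 mice and was called at an adjusted p under 0.05 over all 14079 genes tested. Of the 38, 21 were tested, 15 integrin and 6 laminin chains, and none of these reached 1 TPM in mice of 1 group only.

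In resistant against sensitive tumors, 5 of the 21 were called higher (ITGA3, ITGA5, ITGA6, ITGAE and LAMA3), where 9.56% of all genes were. Without mouse 6-4 they were 2, and without 6-5 or 9-3 they were 3. LAMB1 was the 1 called lower, where 11.6% of all genes were. In resistant against vehicle tumors, 6 were higher (ITGA3, ITGA6, ITGB6, LAMA3, LAMB2 and LAMB3), against 11.5% of all genes, and LAMB1 was lower, against 32.5%. In sensitive against vehicle tumors, limma called 0 members higher, where 3.16% of all genes were, and 0 members were higher at an unadjusted p under 0.05. The 1 member lower in that comparison was LAMA3, against 12.6% of all genes, and 5 were lower at an unadjusted p under 0.05. At that unadjusted threshold 1169 of all 14079 genes were higher and 3154 lower. The median change of the 21 was 0.31 in resistant against vehicle, 0.34 in resistant against sensitive and -0.02 in sensitive against vehicle tumors, beside 0 for all genes by construction. Each pair of comparisons shares 1 group of mice, so their values are given side by side and not as separate support.

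The median change of all genes that was taken off was -0.14 in resistant against vehicle, -0.05 in resistant against sensitive and -0.07 in sensitive against vehicle tumors. With median-of-ratios scaling that median lay close to 0 in each comparison, and in resistant against vehicle tumors the calls over all genes became 2553 higher and 2432 lower, in place of 1624 and 4570. In resistant against sensitive tumors they became 1715 higher and 1331 lower, in place of 1346 and 1631. In sensitive against vehicle tumors they became 771 higher and 1062 lower, in place of 445 and 1767. Quantile normalization gave 2333 higher and 2773 lower in resistant against vehicle tumors, and 938 higher and 989 lower in sensitive against vehicle tumors. Of the members, 9 were then called higher in resistant against vehicle tumors under both, since ITGA7, ITGAL and ITGB5 joined the 6, and LAMB1 was lower in each.

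**Figure D1:**
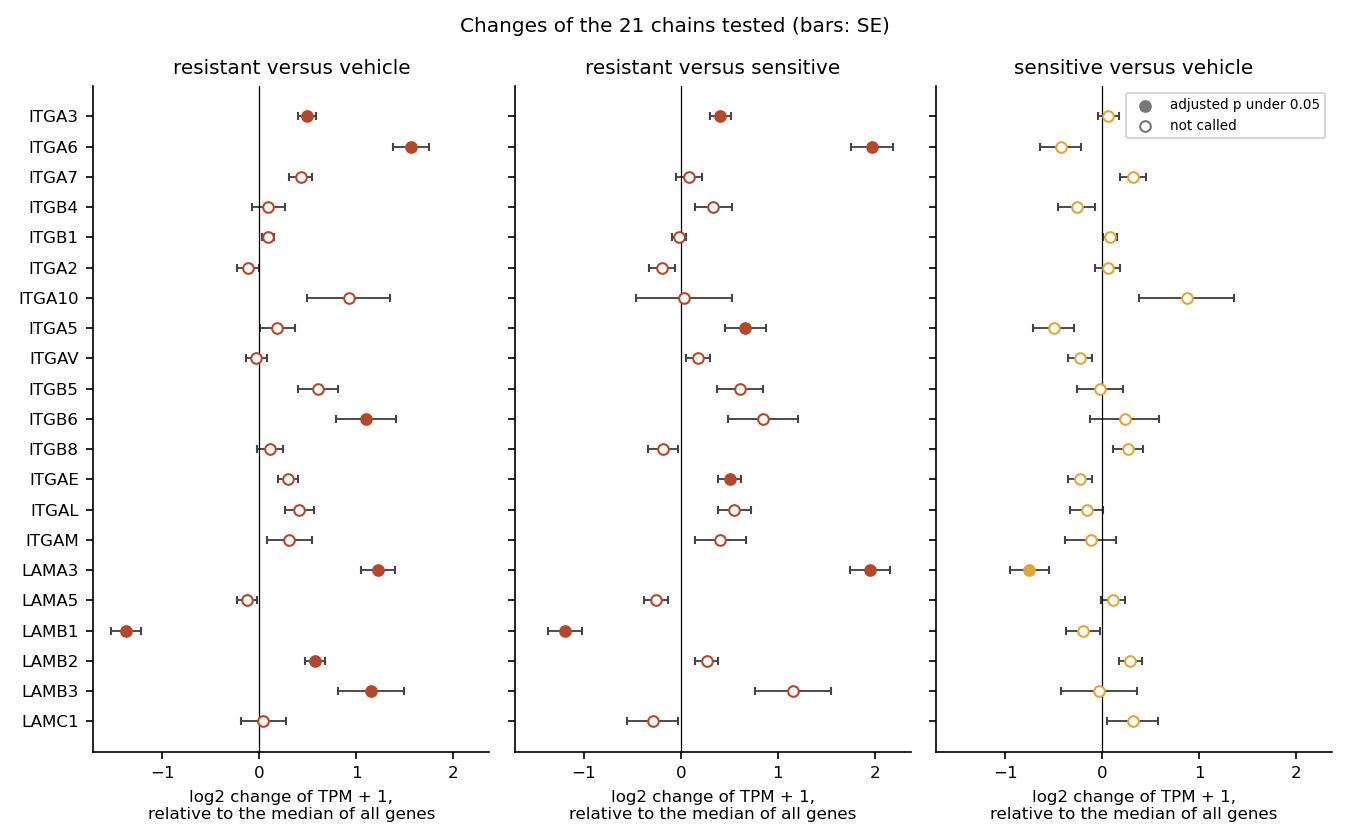
Change of each tested chain on the log2(TPM + 1) scale relative to the median of all genes (x axis) in the 3 comparisons; bars are SE and filled points were called at an adjusted p under 0.05. ITGA6 and LAMA3 lie farthest to the right against both other groups, at 1.22 to 1.97, and LAMB1 farthest to the left, at -1.19 and -1.38.

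The highest chains were the same in each group. ITGB1, the beta chain shared by most integrins, was the highest integrin, at 153 ± 6.44 TPM in resistant, 159.9 ± 14.5 TPM in sensitive and 159 ± 10.1 TPM in vehicle tumors (SD, n = 5, 3 and 5). ITGB5, ITGB4 and ITGA3 followed it in all 3 groups. ITGA6 was the sixth integrin in resistant tumors and the ninth in vehicle tumors. Among laminins LAMB2 led, then LAMA5, in all 3 groups, and LAMB1 was the lowest of the tested laminins, also in all 3. TPM is scaled for transcript length, so these levels can be set side by side.

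**Figure D2:**
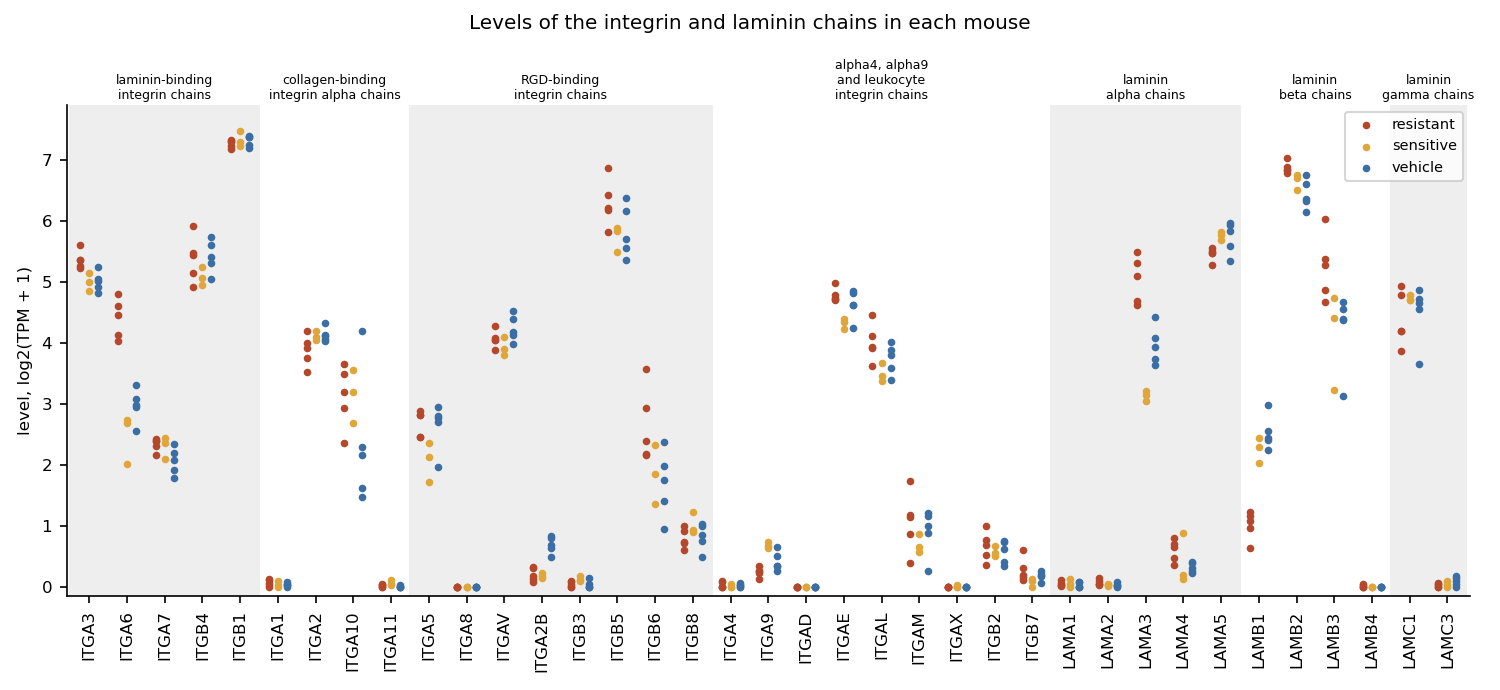
Level of each integrin and laminin chain as log2(TPM + 1) (y axis), 1 point a mouse, in resistant, sensitive and vehicle tumors, with chains grouped by role. ITGB1 was the highest integrin chain and LAMB2 the highest laminin chain in each group, while 17 members stayed at or near the bottom of the axis.

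Among the laminin alpha chains, LAMA3, which carries the integrin-binding end of laminin-332, had 33.4, 43.9, 24.8, 23.5 and 38.7 TPM in the 5 resistant mice, against 7.26, 8.26 and 7.84 TPM in the sensitive and 15.8, 12.3, 20.5, 14.2 and 11.4 TPM in the vehicle mice. No 2 of the groups overlapped: the sensitive mice were lowest and the resistant mice highest. LAMA3 rose by 1.95 ± 0.20 (SE, adjusted p = 0.000118) in resistant against sensitive tumors, and by 1.22 ± 0.18 (SE, adjusted p = 0.000346) in resistant against vehicle tumors. It fell in sensitive against vehicle tumors, with a change of -0.75 ± 0.20 (SE, adjusted p = 0.0155). That last call was lost without mouse 6-5, at -0.80 and adjusted p = 0.0527, and without 6-6, at -0.77 and adjusted p = 0.0569, with a range of 0.000644 to 0.0569 over the alternatives. The gene has transcripts from an outer and an inner start, and a value per gene cannot say which of them changed.

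LAMA5, the alpha chain of laminin-511 and laminin-521, did not follow LAMA3. Its levels were 43.4, 37.98, 44.2, 46.3 and 43.5 TPM in resistant, against 55.3, 50.6 and 53.7 TPM in sensitive and 56.02, 61.3, 59.9, 39.3 and 47.2 TPM in vehicle tumors. Each resistant mouse lay under each sensitive mouse, and all but 9-6 lay within the range of the vehicle mice. The change was -0.25 ± 0.12 (SE, adjusted p = 0.0976) in resistant against sensitive tumors, and -0.13 ± 0.11 (SE, adjusted p = 0.0578) in resistant against vehicle tumors, so neither was called. The gene ADRM1 overlaps LAMA5, and no source used here says whether reads were counted by strand, so reads of overlapping genes cannot be told apart. LAMA1, LAMA2 and LAMA4, chains known from embryonic, muscle and vascular basement membranes, stayed at or under 0.845 TPM in every mouse and were not tested.

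Of the beta chains, LAMB3, that of laminin-332, had 64.1, 28.1, 40.3, 37.98 and 24.3 TPM in resistant, against 8.38, 20.3 and 25.5 TPM in sensitive and 24.6, 19.7, 7.79, 22.4 and 19.96 TPM in vehicle tumors. The lowest resistant mouse, 9-9, lay among the sensitive and vehicle mice, and 9-3 stood at the top. Mice 6-4 and 1-5 were the lowest of the sensitive and the vehicle group. LAMB3 rose by 1.15 ± 0.34 (SE, adjusted p = 0.0264) in resistant against vehicle tumors. That call was lost without mouse 9-3, at 0.95 and adjusted p = 0.0683, and without mouse 1-5, at 0.87 and adjusted p = 0.0542, within a range of 0.00146 to 0.0683. Against sensitive tumors the change was of like size, 1.16 ± 0.39 (SE, adjusted p = 0.0565), and was not called, with a range of 0.00469 to 0.289 over the alternatives.

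LAMB2, the beta chain of laminin-521 and the most abundant laminin transcript here, had 113, 117, 129.9, 109.8 and 114 TPM in resistant, against 107, 90.4 and 103 TPM in sensitive and 107, 96.7, 79.4, 80.7 and 69.9 TPM in vehicle tumors. Each resistant mouse lay above every other mouse, by a small step. LAMB2 rose by 0.58 ± 0.10 (SE, adjusted p = 0.00354) in resistant against vehicle tumors, and the change against sensitive tumors was 0.27 ± 0.12 (SE, adjusted p = 0.193). Its pseudogene LAMB2P1 was listed at no more than 1.36 TPM in any mouse.

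LAMB1, the beta chain of laminin-111 and laminin-511, moved the other way. It had 1.35, 1.25, 0.96, 1.11 and 0.55 TPM in resistant, against 3.1, 3.87 and 4.41 TPM in sensitive and 6.86, 4.46, 3.73, 4.31 and 4.87 TPM in vehicle tumors. The highest resistant mouse lay well under the lowest mouse of the other groups, which overlapped each other. LAMB1 fell in both resistant comparisons, with a change of -1.19 ± 0.18 (SE, adjusted p = 0.000611) against sensitive tumors and -1.38 ± 0.15 (SE, adjusted p = 8.28e-06) against vehicle tumors. Between sensitive and vehicle tumors its change was -0.20 ± 0.18 (SE, adjusted p = 0.308). The gene DLD overlaps LAMB1. LAMB4, a beta chain gene next to LAMB1, was listed at 0.03 TPM at most.

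Of the gamma chains, LAMC1, that of laminin-511 and laminin-521, had 26.7, 17.2, 29.6, 17.3 and 13.6 TPM in resistant, against 25.1, 25.05 and 26.4 TPM in sensitive and 28.2, 24.1, 11.6, 25.2 and 22.4 TPM in vehicle tumors. The groups overlapped, with the widest spread in the resistant and vehicle mice. Its change was -0.29 ± 0.26 (SE, adjusted p = 0.387) in resistant against sensitive, and 0.04 ± 0.23 (SE, adjusted p = 0.759) in resistant against vehicle tumors. LAMC3 did not exceed 0.125 TPM.

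**Figure D3:**
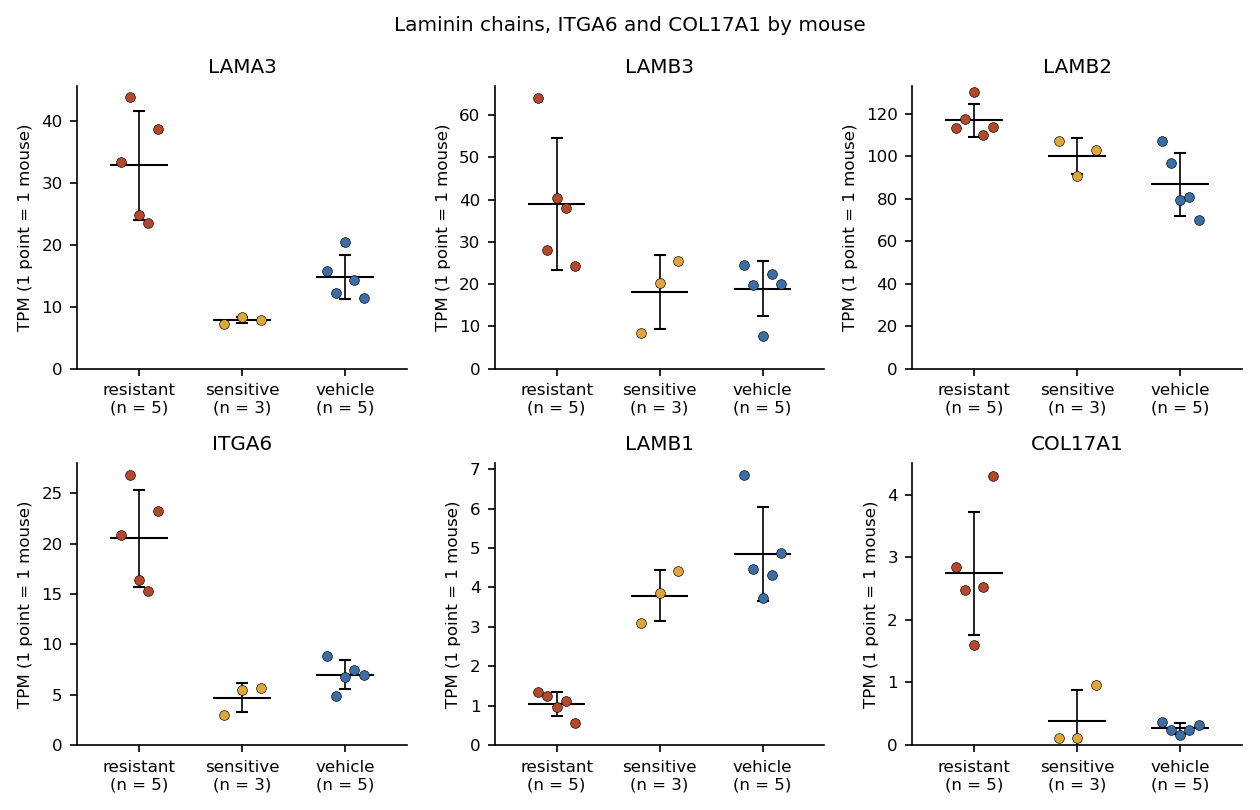
Level in TPM (y axis, from 0) of LAMA3, LAMB3, LAMB2, ITGA6, LAMB1 and COL17A1, 1 point a mouse; the line is the mean and the bar the SD over 5 resistant, 3 sensitive and 5 vehicle mice. The resistant mice lie apart from both other groups in each panel except LAMB3, above them in 4 panels and below them for LAMB1.

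Since TPM shares a fixed total, the chains were also set against each other within each mouse. LAMA3 made up 42.4% ± 8.22 of all laminin alpha chain TPM in resistant tumors, 12.7% ± 1.27 in sensitive and 21.9% ± 4.11 in vehicle tumors (SD, n = 5, 3 and 5). In this share every resistant mouse was above every other mouse. The LAMB3 share of beta chain TPM was 24.3% ± 7.22 in resistant, 14.7% ± 6.6 in sensitive and 16.9% ± 5.09 in vehicle tumors, and these groups overlapped. LAMB1 held 0.662% ± 0.181 of beta chain TPM in resistant, 3.11% ± 0.422 in sensitive and 4.38% ± 0.634 in vehicle tumors, with no overlap between any groups. These shares are a description and carry no test.

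**Figure D4:**
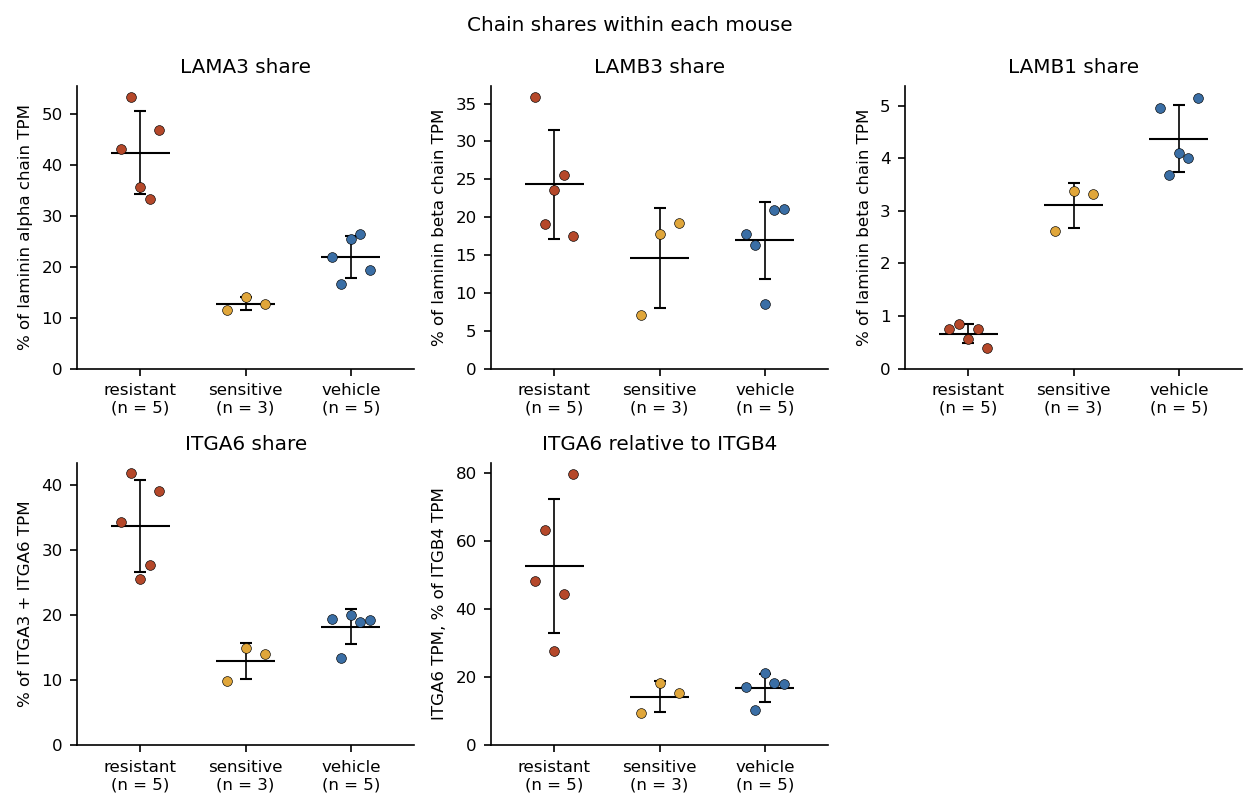
Shares within each mouse (y axis, percent, from 0), 1 point a mouse, with mean and SD, for LAMA3, LAMB3 and LAMB1 among laminin chains of their kind, ITGA6 among ITGA3 and ITGA6, and ITGA6 as a percent of ITGB4. The resistant mice hold a LAMA3 share of 33.3% to 53.4%, above all other mice.

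Sequence before the starts of LAMB3, LAMA3 and ITGA6 is shown because these are the hemidesmosome laminin and integrin chains higher in resistant than in vehicle tumors, and because AP-1 (the Fos and Jun dimers) is a known regulator of laminin-332 genes. The bases are RefSeq's, build GRCh38.p14, in lower case, with capitals for the AP-1 letters TGAGTCA or TGACTCA, which are each other's reverse complement, so that each search covers both strands. The LAMB3 stretch is chr1:209651395-209651624 on the minus strand, and its match begins 67 bases before an inner start. The windows at 2 outer starts of LAMB3, not printed, hold no match, nor do the windows of ITGB6 and LAMB2, which were also higher in that comparison, as was ITGA3. The LAMA3 stretches, chr18:23872884-23872912 and chr18:23872940-23872968 on the plus strand, hold matches that begin 125 and 69 bases before the inner start. Annotated untranslated sequence of a LAMA3 transcript begins just after chr18:23872839, ahead of both matches. The printed LAMB3 and ITGA6 stretches hold no such sequence of their own genes. The ITGA6 stretch is chr2:172427086-172427335 on the plus strand, the 250 bases before its first start, and holds no AP-1 match.
LAMB3: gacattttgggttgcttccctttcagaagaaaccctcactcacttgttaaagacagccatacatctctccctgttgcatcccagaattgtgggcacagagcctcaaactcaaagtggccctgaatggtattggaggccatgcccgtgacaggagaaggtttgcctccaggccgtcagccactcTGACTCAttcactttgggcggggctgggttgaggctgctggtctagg
LAMA3 first match: ctggcacaggcTGACTCAtgtgtgaagtt
LAMA3 second match: ccttcctcaccTGAGTCAggcaggcccgg
ITGA6: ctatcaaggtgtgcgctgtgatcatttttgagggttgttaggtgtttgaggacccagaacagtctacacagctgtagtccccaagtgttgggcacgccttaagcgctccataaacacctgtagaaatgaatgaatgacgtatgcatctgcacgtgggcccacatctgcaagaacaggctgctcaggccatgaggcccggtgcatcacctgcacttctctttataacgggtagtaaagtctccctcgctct
Of 33 windows for 26 of the member genes, 2 held these letters, those of LAMA3 and LAMB3, and 4.2% of all 35116 windows of that length did. Other known promoter patterns were searched in the same windows. The GC box was in 17 member windows and in 42.6% of all windows. The TATA box was in 2, for ITGA6 and ITGB1, and in 10.7% of all. The estrogen response element was in 0 and in 0.0399% of all. Whether any member count differs from its share of all windows was not tested. A match describes letters, and neither binding nor start use was measured here.

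Among the laminin-binding integrins, ITGA6 had the highest rise. It had 20.9, 26.9, 16.4, 15.3 and 23.3 TPM in resistant, against 3.02, 5.44 and 5.62 TPM in sensitive and 8.88, 4.85, 6.75, 7.49 and 6.93 TPM in vehicle tumors. Every resistant mouse was above every other mouse, while the sensitive and vehicle mice overlapped. ITGA6 rose by 1.97 ± 0.21 (SE, adjusted p = 0.00014) in resistant against sensitive tumors, and by 1.56 ± 0.18 (SE, adjusted p = 6.21e-05) in resistant against vehicle tumors. Sensitive against vehicle tumors gave -0.43 ± 0.21 (SE, adjusted p = 0.126). The gene lies on chromosome 2 at 172427354 to 172506282 (GRCh38, plus strand), where the antisense gene ITGA6-AS1 overlaps it.

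ITGB4, the only known partner of ITGA6 in hemidesmosomes, was not called in any comparison. It had 43.4, 42.5, 59.1, 34.4 and 29.2 TPM in resistant, against 32.5, 29.8 and 36.95 TPM in sensitive and 52.3, 47.7, 31.9, 41.3 and 38.8 TPM in vehicle tumors. The 3 groups overlapped. Its change was 0.34 ± 0.19 (SE, adjusted p = 0.302) in resistant against sensitive, and 0.09 ± 0.17 (SE, adjusted p = 0.851) in resistant against vehicle tumors. As a percent of ITGB4 within a mouse, ITGA6 stood at 52.6% ± 19.7 in resistant, 14.3% ± 4.56 in sensitive and 16.9% ± 4.06 in vehicle tumors (SD, n = 5, 3 and 5). ITGB4 thus exceeded ITGA6 in every mouse. The gene GALK1 overlaps ITGB4.

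ITGA3, the other laminin-332 receptor alpha chain, had 39.9, 37.4, 47.8, 39.95 and 36.4 TPM in resistant, against 27.7, 30.9 and 34.6 TPM in sensitive and 37.00, 31.2, 27.1, 32.01 and 29.2 TPM in vehicle tumors. The resistant mice lay above the sensitive ones, and 1-2 was the vehicle mouse that reached into the resistant range. ITGA3 rose by 0.49 ± 0.10 (SE, adjusted p = 0.00908) in resistant against vehicle tumors. Against sensitive tumors it rose by 0.41 ± 0.11 (SE, adjusted p = 0.0326), a call lost without mice 6-4 (adjusted p = 0.153), 6-5 (0.0927), 9-3 (0.0548) or 9-7 (0.0637) and with A libraries alone (0.0769), within a range of 0.00295 to 0.153. The ITGA6 share of ITGA3 and ITGA6 TPM was 33.7% ± 7.03 in resistant, 12.9% ± 2.72 in sensitive and 18.2% ± 2.67 in vehicle tumors (SD, n = 5, 3 and 5).

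ITGB1, the beta chain that pairs with ITGA3 and with ITGA6, had 160.2, 144, 157, 149 and 155 TPM in resistant, against 176, 148 and 155 TPM in sensitive and 165, 145, 151, 168 and 165 TPM in vehicle tumors. The ranges lay over each other, and its changes were -0.01 ± 0.07 (SE, adjusted p = 0.585) in resistant against sensitive, and 0.08 ± 0.06 (SE, adjusted p = 0.523) in resistant against vehicle tumors. ITGA7, a laminin receptor best known in muscle, ran from 3.48 to 4.36 TPM in resistant, 3.25 to 4.42 TPM in sensitive and 2.42 to 4.05 TPM in vehicle tumors. Its change of 0.42 ± 0.12 (SE, adjusted p = 0.0583) in resistant against vehicle tumors was not called, and METTL7B and BLOC1S1 overlap the gene.

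**Figure D5:**
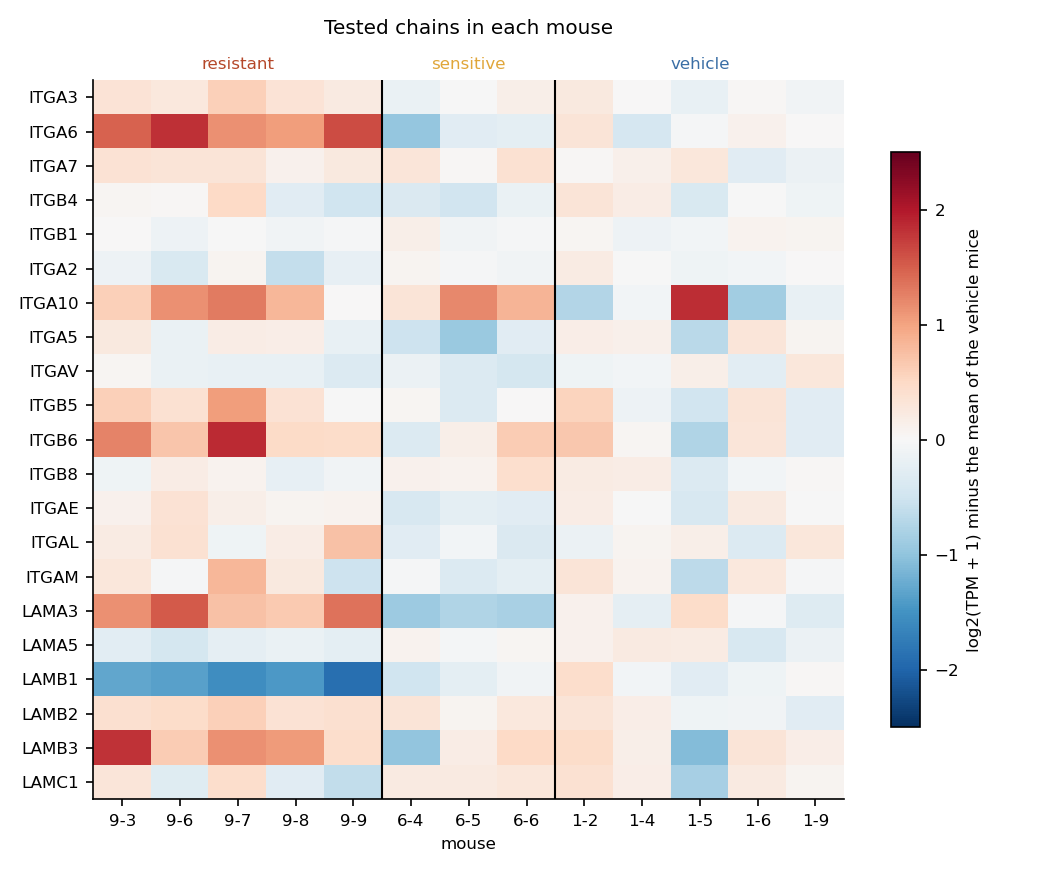
The 21 tested chains (rows) in each mouse (columns) as log2(TPM + 1) minus the mean of the vehicle mice; red is higher and blue lower. ITGA6 and LAMA3 are red and LAMB1 blue in all 5 resistant mice, and vehicle mouse 1-5 differs from the other vehicle mice in ITGA10, LAMB3 and LAMC1.

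Of the integrin chains that bind the RGD sequence of fibronectin and related ligands, 5 were tested, and 1 was called in each resistant comparison. They were ITGB6 against vehicle tumors, where 11.5% of all genes were higher, and ITGA5 against sensitive tumors, where 9.56% were. ITGB6, the epithelial partner of ITGAV, had 6.62, 4.24, 10.8, 3.51 and 3.46 TPM in resistant, against 1.55, 2.58 and 4.02 TPM in sensitive and 4.17, 2.36, 0.925, 2.96 and 1.64 TPM in vehicle tumors. Mice 9-7 and 9-3 were well above all others and 9-6 narrowly so, while 9-8 and 9-9 lay within the sensitive and vehicle range. ITGB6 rose by 1.10 ± 0.31 (SE, adjusted p = 0.0226) in resistant against vehicle tumors, a call lost without mice 9-3, 9-7, 1-5 or 1-9 (adjusted p from 0.0513 to 0.055), within a range of 0.00293 to 0.055. Its change against sensitive tumors was 0.85 ± 0.36 (SE, adjusted p = 0.126).

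ITGA5, the fibronectin receptor alpha chain, had 6.37, 4.51, 6.07, 6.01 and 4.49 TPM in resistant, against 3.35, 2.29 and 4.13 TPM in sensitive and 5.94, 5.84, 2.9, 6.72 and 5.54 TPM in vehicle tumors. Resistant and vehicle mice overlapped, and the sensitive mice lay under the resistant ones. ITGA5 rose by 0.67 ± 0.21 (SE, adjusted p = 0.0499) in resistant against sensitive tumors, at the edge of the threshold. The call was lost in 12 alternatives, among them those without mouse 1-2, 1-4, 1-9, 6-4, 6-5, 9-3, 9-6, 9-7 or 9-8, within a range of 0.00946 to 0.221. In resistant against vehicle tumors its change was 0.18 ± 0.18 (SE, adjusted p = 0.848).

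ITGB5, a vitronectin receptor chain, had 85.3, 72.7, 116, 71.8 and 55.3 TPM in resistant, against 58.1, 43.9 and 56.3 TPM in sensitive and 82.2, 51.3, 39.8, 70.2 and 46.1 TPM in vehicle tumors. Mouse 9-7 was highest and the groups overlapped. Its changes were 0.61 ± 0.21 (SE, adjusted p = 0.0774) in resistant against vehicle, and 0.61 ± 0.24 (SE, adjusted p = 0.106) in resistant against sensitive tumors. ITGAV, the alpha chain that ITGB5, ITGB6 and ITGB8 pair with, ran from 13.8 to 18.5 TPM in resistant, 13.01 to 16.1 TPM in sensitive and 14.7 to 22.02 TPM in vehicle tumors, with a change of -0.03 ± 0.11 (SE, adjusted p = 0.223) in resistant against vehicle tumors. ITGB8 ran from 0.525 to 1.00 TPM in resistant, 0.865 to 1.35 TPM in sensitive and 0.395 to 1.04 TPM in vehicle tumors, and was called in none of the 3 comparisons.

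Of the collagen receptors, ITGA2 had 15.03, 12.4, 17.4, 10.5 and 14.2 TPM in resistant, against 17.3, 16.1 and 15.6 TPM in sensitive and 19.1, 16.3, 15.3, 15.6 and 16.5 TPM in vehicle tumors. The groups overlapped, and its change was -0.12 ± 0.11 (SE, adjusted p = 0.081) in resistant against vehicle tumors. ITGA10, a collagen receptor chain best known in cartilage, had 6.67, 10.3, 11.6, 8.12 and 4.15 TPM in resistant, against 5.42, 10.7 and 8.13 TPM in sensitive and 2.09, 3.9, 17.4, 1.78 and 3.46 TPM in vehicle tumors. Vehicle mouse 1-5 was above every other mouse, and the other vehicle mice were below the lowest resistant mouse. Its change was 0.92 ± 0.43 (SE, adjusted p = 0.148) in resistant against vehicle tumors, and 1.38 with an adjusted p of 0.00223 without mouse 1-5 (range 0.00223 to 0.3). In sensitive against vehicle tumors it was 0.87 ± 0.49 (SE, adjusted p = 0.29), and 1.32 with an adjusted p of 0.0118 without that mouse (range 0.0118 to 0.6). ITGA1 and ITGA11 did not exceed 0.09 TPM.

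Among the chains named for leukocytes, ITGAE, the alpha chain of the E-cadherin-binding integrin of intraepithelial T cells, had 25.6, 30.6, 26.5, 25.1 and 25.5 TPM in resistant, against 17.8, 19.98 and 19.3 TPM in sensitive and 27.3, 23.5, 17.9, 27.9 and 23.5 TPM in vehicle tumors. The resistant mice lay above the sensitive ones and, 9-6 apart, within the vehicle range. ITGAE rose by 0.50 ± 0.12 (SE, adjusted p = 0.0172) in resistant against sensitive tumors, a call lost without mouse 6-4 (adjusted p = 0.0751) with A or B libraries alone, and in the fits of all 26 libraries, within a range of 0.00303 to 0.0861. Its only known partner, ITGB7, reached 0.515 TPM at most. The gene HASPIN, listed under its older symbol GSG2, lies within ITGAE and averaged 1.66 ± 0.562 TPM in resistant, 0.567 ± 0.263 TPM in sensitive and 4.90 ± 0.888 TPM in vehicle tumors (SD, n = 5, 3 and 5).

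ITGAL, the alpha chain of the leukocyte integrin LFA-1, had 14.3, 16.3, 11.3, 14.1 and 21.03 TPM in resistant, against 9.99, 11.7 and 9.42 TPM in sensitive and 11.1, 12.99, 13.7, 9.44 and 15.2 TPM in vehicle tumors. The groups overlapped, and its change was 0.55 ± 0.17 (SE, adjusted p = 0.0519) in resistant against sensitive tumors, just short of the threshold, with a range of 0.0131 to 0.151 over the alternatives. Its partner ITGB2 reached 1.00 TPM at most, in mouse 9-3. ITGAM, known from myeloid cells, ran from 0.31 to 2.33 TPM in resistant, 0.48 to 0.815 TPM in sensitive and 0.19 to 1.32 TPM in vehicle tumors, and was not called.

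The 17 untested members stayed at or under 1.00 TPM in every mouse, 12 of them under 0.2 TPM, and ITGA8 and ITGAD were at 0 in all 26 libraries. ITGA2B, the platelet integrin alpha chain, ran from 0.05 to 0.245 TPM in resistant, 0.11 to 0.175 TPM in sensitive and 0.4 to 0.775 TPM in vehicle tumors, so that the vehicle mice lay above the rest. ITGA9 ran from 0.09 to 0.27 TPM in resistant, 0.55 to 0.66 TPM in sensitive and 0.2 to 0.575 TPM in vehicle tumors. The remaining untested integrins were ITGA1, ITGA4, ITGA11, ITGAX, ITGB2, ITGB3 and ITGB7, and ITGBL1 was listed at no more than 0.05 TPM.

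The hemidesmosome and laminin receptor partners were counted next. Of 13 such genes tested, COL17A1, which was higher, was the 1 called in resistant against sensitive tumors, where 9.56% of all genes were higher and 11.6% lower. COL17A1 passed the filter through the resistant mice alone, where it was high, so its place in these counts is a description and no support. Against vehicle tumors, COL17A1 and SDC2 were higher and CD9 lower, where 11.5% of all genes were higher and 32.5% lower. None was called in sensitive against vehicle tumors, where 3.16% of all genes were higher and 12.6% lower. There 1 was lower at an unadjusted p under 0.05, as were 3154 of all 14079 genes. The 2 higher and 1 lower became 4 and 0 under median-of-ratios scaling, while quantile normalization gave 3 and 1. The list's median change was 0.17 in resistant against vehicle, 0.09 in resistant against sensitive and 0.05 in sensitive against vehicle tumors.

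COL17A1, the transmembrane collagen of hemidesmosomes, had 2.84, 2.47, 1.59, 2.52 and 4.29 TPM in resistant, against 0.105, 0.105 and 0.96 TPM in sensitive and 0.375, 0.235, 0.155, 0.24 and 0.325 TPM in vehicle tumors. It reached 1 TPM in resistant mice only, so a gene of this pattern could enter the test only if it differed. Its change was 1.49 ± 0.22 (SE, adjusted p = 0.000914) in resistant against sensitive, and 1.65 ± 0.19 (SE, adjusted p = 4.64e-05) in resistant against vehicle tumors. SDC2, a heparan sulfate proteoglycan, rose by 0.77 ± 0.21 (SE, adjusted p = 0.0243) in resistant against vehicle tumors. CD9, a tetraspanin that associates with integrins, fell in the same comparison, with a change of -0.33 ± 0.17 (SE, adjusted p = 0.0379). The SDC2 call was lost without mouse 1-2, 1-4, 9-6 or 9-9 (adjusted p from 0.0551 to 0.0603). The CD9 call was lost without 1-5, 1-9, 9-3, 9-6, 9-8 or 9-9, with no filter and with median-of-ratios scaling (adjusted p from 0.0513 to 0.133). CD151, the tetraspanin that binds ITGA3 and ITGA6, was at 182 ± 9.09 TPM in resistant, 163 ± 5.13 TPM in sensitive and 171 ± 18.5 TPM in vehicle tumors, and PLEC, the hemidesmosome plakin, at 103 ± 9.58, 108 ± 1.74 and 103 ± 24.6 TPM in resistant, sensitive and vehicle tumors (SD, n = 5, 3 and 5).

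Of the basement membrane partners, 8 of 18 were tested. In resistant against vehicle tumors COL18A1, FBLN2 and FREM2 were higher and SPARC lower, where 11.5% of all genes were higher and 32.5% lower. SPARC was no longer called under either scaling, which left 3 higher and 0 lower. In resistant against sensitive tumors FBLN1 and FBLN2 were higher, and in sensitive against vehicle tumors COL18A1 was higher and FBLN1 lower (2 higher and 1 lower with quantile normalization). Among the 14079 genes tested, calls made up 9.56% (higher) and 11.6% (lower) for the former comparison. For the latter they made up 3.16% (higher) and 12.6% (lower). The list's median change was 0.23 in resistant against vehicle, 0.08 in resistant against sensitive and 0.18 in sensitive against vehicle tumors.

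FBLN1, fibulin-1, had 29.2, 36.8, 49.3, 25.9 and 30.1 TPM in resistant, against 8.49, 8.11 and 10.1 TPM in sensitive and 46.8, 36.4, 27.8, 47.8 and 31.7 TPM in vehicle tumors. It was low in the sensitive mice alone, with a change of -1.88 ± 0.20 (SE, adjusted p = 1.4e-05) in sensitive against vehicle and 1.85 ± 0.20 (SE, adjusted p = 0.000162) in resistant against sensitive tumors. FBLN2, fibulin-2, which binds laminin-332, had 23.8, 19.3, 14.5, 16.9 and 22.1 TPM in resistant, against 7.14, 10.1 and 10.6 TPM in sensitive and 9.51, 10.04, 10.1, 9.64 and 10.3 TPM in vehicle tumors. It was high in the resistant mice alone, with a change of 1.03 ± 0.15 (SE, adjusted p = 0.000883) in resistant against sensitive, and 1.01 ± 0.13 (SE, adjusted p = 0.000154) in resistant against vehicle tumors. COL18A1, a basement membrane collagen, changed by 0.77 ± 0.12 (SE, adjusted p = 0.00107) in resistant against vehicle and by 0.65 ± 0.14 (SE, adjusted p = 0.014) in sensitive against vehicle tumors. FREM2, an epithelial basement membrane protein, rose by 1.09 ± 0.23 (SE, adjusted p = 0.00416) in resistant against vehicle tumors, where SPARC, a matricellular protein, changed by -0.37 ± 0.19 (SE, adjusted p = 0.0426). The SPARC call was lost in 15 of 24 alternatives, among them those without mouse 1-2, 1-4, 1-5, 1-9, 6-6, 9-6, 9-7, 9-8 or 9-9 (range 0.00842 to 0.122). The COL18A1 call in sensitive against vehicle tumors was lost without mouse 6-5 or 6-6 (adjusted p = 0.0766 and 0.0903). The classical type IV collagen chains COL4A1 and COL4A2 and the laminin linker NID1 did not exceed 0.56 TPM in any mouse.

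On the inside of the cell, 32 of 37 integrin adhesion complex genes were tested. In resistant against vehicle tumors 2 were higher (BCAR1 and ZYX) and 13 lower, among them ACTN4, ILK, PTK2, PXN, TLN1 and VCL, where 11.5% of all genes were higher and 32.5% lower. That split became 4 higher and 7 lower under median-of-ratios scaling and under quantile normalization. In resistant against sensitive tumors BCAR1, KANK2 and ZYX were higher and GIT2, RAPH1 and TLN1 lower. Of all genes 9.56% were higher and 11.6% lower there. In sensitive against vehicle tumors limma called 0 higher (1 at an unadjusted p under 0.05) and 5 lower, ACTN4, ILK, ITGB1BP1, KANK2 and PXN. Of all genes 3.16% were higher and 12.6% lower there, and 1169 of 14079 were higher at an unadjusted p under 0.05. The 0 and 5 became 1 higher and 3 lower under both scalings. The list's median change was -0.07 in resistant against vehicle, 0.00 in resistant against sensitive and -0.05 in sensitive against vehicle tumors.

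TLN1, talin, which binds integrin beta tails, had 34.4, 33.2, 34.04, 30.6 and 35.9 TPM in resistant, against 43.9, 39.5 and 40.6 TPM in sensitive and 47.3, 47.5, 52.5, 39.8 and 41.9 TPM in vehicle tumors. Its change was -0.30 ± 0.08 (SE, adjusted p = 0.000741) in resistant against vehicle tumors, and -0.25 ± 0.09 (SE, adjusted p = 0.0341) in resistant against sensitive tumors. RAPH1, lamellipodin, changed by -0.64 ± 0.13 (SE, adjusted p = 0.000513), ACTN4, an actin crosslinker, by -0.33 ± 0.08 (SE, adjusted p = 0.000705), and ILK, an integrin-bound pseudokinase, by -0.21 ± 0.07 (SE, adjusted p = 0.00101), each in resistant against vehicle tumors. BCAR1, the scaffold protein p130Cas, had 30.9, 35.9, 33.5, 30.98 and 33.5 TPM in resistant, against 21.7, 24.2 and 27.05 TPM in sensitive and 24.6, 28.4, 26.9, 26.1 and 24.3 TPM in vehicle tumors. All resistant mice lay above all others, with a change of 0.47 ± 0.09 (SE, adjusted p = 0.00447) against sensitive and 0.47 ± 0.07 (SE, adjusted p = 0.00299) against vehicle tumors. KANK2, a talin-binding protein, was low in sensitive tumors, with a change of -0.79 ± 0.15 (SE, adjusted p = 0.00152) against vehicle tumors. PXN, paxillin, changed by -0.31 ± 0.11 (SE, adjusted p = 0.0345) in sensitive against vehicle tumors, and GIT2, a paxillin partner, by -0.29 ± 0.10 (SE, adjusted p = 0.0299) in resistant against sensitive tumors. The calls of GIT2 and TLN1 in that comparison were lost in 8 alternatives each, both of them without mouse 6-4, 6-5, 6-6, 9-6 or 9-7, and TLN1 also without 9-3 or 9-8 (range 0.00939 to 0.131 for GIT2 and 0.0155 to 0.145 for TLN1). The RAPH1 call there was lost in 13, among them those without mouse 1-2, 1-4, 1-9, 6-4, 6-5, 6-6, 9-3, 9-6, 9-8 or 9-9 (range 0.0284 to 0.233). That of KANK2 was lost in 3, with A libraries alone and without mouse 6-4 or 6-5 (range 0.00417 to 0.0746). The PXN call was lost in 11, among them those without mouse 1-2, 1-4, 1-5, 1-9, 6-5 or 6-6 (range 0.00291 to 0.2).

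These are bulk values, in which fewer cells of a type and less RNA per cell cannot be told apart, and the markers of other cell types stand here beside the chains. The 9 luminal epithelial markers summed to 10484 to 14010 TPM in resistant, 7579 to 9700.1 TPM in sensitive and 8175 to 12467 TPM in vehicle tumors, so the labelled cell type was present in each. The luminal markers moved in both directions: in resistant against vehicle tumors KRT19 was higher, with a change of 0.93 ± 0.14 (SE, adjusted p = 0.000676), and EPCAM, FOXA1 and GATA3 were lower. Of all genes 11.5% were higher and 32.5% lower in that comparison. GATA3 had a change of -0.52 ± 0.10 (SE, adjusted p = 0.000236) there, while FOXA1 was not called under either scaling and EPCAM not with median-of-ratios scaling. In resistant against sensitive tumors KRT8, KRT18 and KRT19 were higher and none lower, where 9.56% of all genes were higher and 11.6% lower. These calls were lost in 5, 14 and 8 alternatives in that order, all 3 of them without mouse 6-4, 9-3 or 9-7. In sensitive against vehicle tumors GATA3 was the 1 called and was lower, with a change of -0.37 ± 0.12 (SE, adjusted p = 0.0211) and no call without mouse 6-5 or 6-6, with quantile normalization or with only the groups compared (range 0.000459 to 0.139). In that comparison 3.16% of all genes were higher and 12.6% lower. Of the 8 basal or myoepithelial markers, KRT5, TP63 and CNN1 stayed under 1 TPM in every mouse, CNN1 at 0, and the 8 summed to 8.88 to 12.7 TPM in resistant, 19.4 to 39.3 TPM in sensitive and 10.3 to 30.3 TPM in vehicle tumors. The keratins KRT14 and KRT17 of the basal layer fell where LAMA3 and LAMB3 rose: KRT14 had a change of -1.81 ± 0.41 (SE, adjusted p = 0.00204) and KRT17 of -0.71 ± 0.26 (SE, adjusted p = 0.0179) in resistant against vehicle tumors, where OXTR was also lower. KRT14 and KRT17 were also called lower in resistant against sensitive tumors, where 11.6% of all genes were, and no basal marker was called higher. KRT17 was higher in sensitive against vehicle tumors, where it changed by 1.18 ± 0.30 (SE, adjusted p = 0.0249), with a range of 0.00482 to 0.148 over the alternatives and no call without mouse 1-2 or 6-6. MYLK was higher in that comparison too, at 0.85 ± 0.22 (SE, adjusted p = 0.0302), and ACTA2 was lower, at -0.85 ± 0.28 (SE, adjusted p = 0.0377). The MYLK call was lost in 6 alternatives, among them those without mouse 1-2, 1-5, 6-4 or 6-6, and the ACTA2 call in 10, among them both scalings and those without mouse 1-2, 1-4, 1-6, 6-5 or 6-6.

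Of the other lists, 8 of 9 fibroblast markers and all 8 endothelial markers stayed under 1 TPM in every mouse, and COL1A1 alone was tested, with no call. They summed to 4.58 to 10.5 TPM (fibroblast) and 0.795 to 1.21 TPM (endothelial) in resistant tumors, 5.75 to 8.36 and 0.25 to 0.785 TPM in sensitive tumors, and 7.81 to 13.2 and 0.34 to 0.74 TPM in vehicle tumors. The 10 leukocyte markers summed to 15.3 to 18.3 TPM in resistant, 23.6 to 37.7 TPM in sensitive and 14.0 to 34.1 TPM in vehicle tumors. CD3E and TYROBP were at 0 in every mouse and PTPRC reached 0.015 TPM, while CD68 and LYZ were higher and S100A8 and CSF1R lower in resistant against vehicle tumors. Of all genes 11.5% were higher and 32.5% lower there. The CSF1R call was lost with A libraries alone and without mouse 1-6, 1-9, 9-3, 9-7 or 9-9 (range 0.00908 to 0.0757). In resistant against sensitive tumors CD68 and LYZ were likewise called higher and S100A8 and CSF1R lower. Of all genes 9.56% were higher and 11.6% lower in that comparison. No leukocyte marker was called in sensitive against vehicle tumors. No source used here says how reads of the mouse host were removed, and the part of host cells, or of cells with any of these markers, in the results was not tested.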

How the data were processed

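RNA from 26 libraries of 13 tumors was measured by RNA-seq. The authors deposited 1 table of TPM values per gene and library. Per the submitters' processing notes, FastQC, STAR, HTSeq and RSEM and the builds GRCh38 and GRCm38 were used, with no versions or roles. Each library's TPM summed to 999850 to 999889, so read depth is unknown and no counting interval was given. For the fits log2(TPM + 1) was taken in each library, and libraries A and B of a mouse were averaged on that scale. Then limma 3.58.1 in R 4.3.3 (trend, all 13 mice in 1 fit) tested genes with a mean of at least 1 TPM in at least 3 mice, 14079 of 30331, with Benjamini-Hochberg adjustment. The script was tested on simulated data. Nothing says how the tumors of a group are independent beyond coming from separate mice. Named were all members, those called or reaching 5 TPM with values per mouse, and up to 4 called genes per list and comparison, by adjusted p. KRT14, KRT17, ITGA2B, ITGA9, CD151, PLEC and single markers were chosen after their values were seen. Members and lists were chosen with earlier results of these data known. The letters A and B number the libraries of 1 mouse and pair no mice across groups. Median correlation with the mice of its own group was 0.975 for vehicle mouse 1-5 and 0.986 to 0.990 for the others. The A and B values of tested members differed by a median of 0.0924 and by at most 0.699 on the log2(TPM + 1) scale. 1 item is not reported here, and counts of members leave it out. TNS2 was matched as TENC1. Positions are GENCODE 29 (GRCh38).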

Additional observations from a re-analysis of the deposited data

Results flagged for a closer look

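Of 86 groups of 5 mice examined, 5 held a mouse whose gap to its nearest neighbour took up more than 0.71 of the group's range, and chance gives about 1 in 20. ITGA10 was at 17.4 TPM in vehicle mouse 1-5, and the other vehicle mice were at 1.79 to 3.90 TPM. ITGAE was at 30.6 TPM in resistant mouse 9-6, and the other resistant mice were at 25.1 to 26.5 TPM. ILK was at 82.4 TPM in that mouse, and the other resistant mice were at 92.2 to 95.4 TPM. SPARC was at 5.07 TPM in vehicle mouse 1-6, and the other vehicle mice were at 8.37 to 9.35 TPM. The share of ITGA6 in ITGA3 and ITGA6 TPM was 13.4% in vehicle mouse 1-4, and the other vehicle mice held 19.0% to 19.9%.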

How the results depend on the processing

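Over 24 alternatives, 8 of the 14 called results of members kept their call wherever they were tested: ITGA6, LAMA3 and LAMB1 in both resistant comparisons, and ITGA3 and LAMB2 in resistant against vehicle tumors. No member result changed direction where it was called with the main settings or in the alternative. The 1 member lower in sensitive against vehicle tumors became 2 with no filter. That count became 3 with 26 libraries and the mouse as a random block, and 2 with the library letter as a replicate block beside it. The 1 lower in resistant against sensitive tumors became 2 with no filter, with B libraries alone or with only the groups compared, and 0 with a filter at 5 TPM, which left LAMB1 untested. The 1 lower in resistant against vehicle tumors became 2 with no filter or B libraries alone and 0 at 5 TPM. The 5 higher in resistant against sensitive tumors became 2 with A libraries alone and 8 in both fits of 26 libraries. Leaving out each mouse in turn gave 2 to 7 members higher and 1 to 2 lower in resistant against sensitive tumors (2 without 6-4, 3 without 6-5 or 9-3, 2 lower without 1-6), 4 to 7 higher and 1 to 2 lower in resistant against vehicle tumors (2 lower without 1-6 or 9-7), and 0 to 1 higher and 0 to 3 lower in sensitive against vehicle tumors (1 higher without 1-5, 3 lower without 1-5, 0 lower without 6-5 or 6-6). Calls over all genes then numbered 5280 to 6376 in resistant against vehicle (6194 with all mice), 1474 to 3571 in resistant against sensitive (2977, and 1580 without 6-4 or 1474 without 6-5) and 901 to 2417 in sensitive against vehicle tumors (2212, and 901 without 6-5 or 1074 without 6-6). In the pathway lists they numbered 18 to 23 in resistant against vehicle (22), 4 to 10 in resistant against sensitive (9, and 4 without 6-4 or 6-5 or 5 without 9-6) and 2 to 7 in sensitive against vehicle tumors (7, and 2 without 6-5 or 3 without 6-6). Of single-gene results of members, 1372 kept their direction and their side of the threshold, 47 passed it and 30 no longer did. The other 32 changed direction, and were called neither with the main settings nor in the alternative. The cause of these shifts was not tested. Shares with 1 library letter or without 1 mouse were added after seeing the data. Without read counts, the precision of low levels is unknown.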

Other observations

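Pairs of the 21 tested chains that ranked the mice of a group in the same order were counted, as a description with no test. Among the 5 resistant mice 6 of 210 pairs did so. ITGA6 and LAMA3 were 1 such pair, with 9-6 highest, then 9-9, 9-3, 9-7 and 9-8. ITGB4, ITGB5 and ITGB6, all integrin beta chains, shared another order, with 9-7 highest, then 9-3, 9-6, 9-8 and 9-9. The remaining pairs were ITGA5 with LAMB3 and ITGAM with LAMC1. Among the 5 vehicle mice 12 of 210 pairs shared an order, and ITGA6 with LAMA3 was not among them. ITGB5 with ITGB6 and ITGAM with LAMC1 were pairs in both groups. Mice of a group share their treatment and their TPM total, and mouse 1-5 was lowest of the vehicle group for 12 of the 21 chains.

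Several members are neighbours in the genome (GENCODE 29, GRCh38). LAMB1 and LAMB4 lie 20.3 kb apart on chromosome 7, and LAMB4 was not tested. ITGA1 and ITGA2 lie 30.1 kb apart on chromosome 5, with ITGA1 at no more than 0.09 TPM and ITGA2 at 10.5 to 19.1 TPM. ITGAM, ITGAX and ITGAD lie in a row on chromosome 16, 22.2 and 10.3 kb apart, and ITGAM was the one of the 3 that reached 1 TPM. Summed over the 26 chains, integrin TPM was 434 ± 45.4 in resistant, 363 ± 18.4 in sensitive and 389 ± 34.1 in vehicle tumors (SD, n = 5, 3 and 5).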
